A study of Mus musculus with 2 samples.

Results

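T and NK cells were the 55 barcodes, of 16206 that passed the cell filter in 2 mouse liver libraries, which carried transcripts of the T and NK genes Cd3d, Cd3e, Cd3g, Trbc2, Nkg7 and Klrd1. Members were chosen by measured values, the counts of these genes: a barcode entered with at least 3 UMIs (unique molecular identifiers, here counted transcripts) of these 6 genes and at least 5 per 10,000 of its UMIs. Barcodes with 5 or more per 10,000 of the Kupffer cell genes Clec4f, Cd5l, Vsig4 and Marco were kept out. The DDC library held 29 such barcodes of 3613 (0.803%, exact binomial interval 0.538 to 1.15%), and the DDC and cMet library 26 of 12593 (0.206%, 0.135 to 0.302%). All intervals are 95% intervals for counting error only.

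Cells came from perfused livers of mice on a C57BL/6J;129S6/SvEvTac background, and the labels call them primary hepatocytes. DDC is a diet that injures the bile ducts. The DDC library pooled WT mice on normal diet at day 0 with Sox9-EGFP mice after 2 weeks of DDC diet. The DDC and cMet library pooled WT mice at day 0 with Sox9-CreERT2:Rosa26-mTmG mice 5 months after DDC and cMet treatment, with cMet delivered by HTVi in the labels' term. Each time had 2 mice, and the barcodes do not separate mice or times. Each library was therefore 1 sample and a mixture, no test between them was possible, and library, genotype, treatment and time cannot be told apart. Perfusion enriches hepatocytes, so the shares above describe these preparations and not the liver. In such data fewer T and NK cells and fewer recovered cells cannot be told apart.

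T cells recognise antigen through a receptor whose alpha and beta chains bind the antigen and whose CD3 chains, with CD247, carry the signal into the cell through LCK, ZAP70 and LAT. CD4 and CD8 are coreceptors that bind class II and class I molecules and mark helper and cytotoxic T cells. NK cells lack CD3 and read activating and inhibitory receptors of the killer lectin-like family, among them KLRD1 (CD94). Both kinds can kill with granzymes and perforin, and the liver is known for resident lymphocytes that carry CXCR6.

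The gate genes sit in a few loci of the mouse genome (GRCm38). Cd3g and Cd3d lie head to head on chromosome 9, Cd3g at chr9:44969572-44980431 on the minus strand and Cd3d at chr9:44981786-44987339 on the plus strand, with starts 1355 bases apart. Cd3e follows at chr9:44998740-45009627 on the minus strand. Nkg7 lies at chr7:43437073-43438249, Klrd1 at chr6:129591782-129598775, and Trbc2, the second beta-chain constant gene, at chr6:41546730-41548352, all on the plus strand. Cd3d and Cd3g transcripts were found together in 33 of the 35 barcodes with Cd3d. Of the same 35, 34 held Trbc2, on chromosome 6, and 32 held Cd3e, so joint detection was not particular to this pair. These genes all belong to the gate that chose the barcodes. Sequences are shown for the Cd3d and Cd3g pair, which lies head to head, and for Nkg7, because it joined T and NK barcodes. They are the 250 bases before each start in RefSeq (GRCm38.p6), at chr9:44981536-44981785, chr9:44980432-44980681 and chr7:43436888-43437137. Capitals mark GGAA, the core bound by ETS factors, and TGTGGT, the core bound by RUNX factors, on either strand.
Cd3d: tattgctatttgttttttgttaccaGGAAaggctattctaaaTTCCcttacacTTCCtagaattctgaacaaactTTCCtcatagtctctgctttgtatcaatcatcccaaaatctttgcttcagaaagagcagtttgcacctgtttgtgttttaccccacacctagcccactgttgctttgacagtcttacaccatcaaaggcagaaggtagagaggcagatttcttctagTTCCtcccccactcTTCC
Cd3g: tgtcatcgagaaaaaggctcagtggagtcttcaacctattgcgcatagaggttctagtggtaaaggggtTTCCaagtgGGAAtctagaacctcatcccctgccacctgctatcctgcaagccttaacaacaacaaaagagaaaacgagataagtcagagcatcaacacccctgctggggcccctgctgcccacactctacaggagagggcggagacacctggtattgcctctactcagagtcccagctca
Nkg7: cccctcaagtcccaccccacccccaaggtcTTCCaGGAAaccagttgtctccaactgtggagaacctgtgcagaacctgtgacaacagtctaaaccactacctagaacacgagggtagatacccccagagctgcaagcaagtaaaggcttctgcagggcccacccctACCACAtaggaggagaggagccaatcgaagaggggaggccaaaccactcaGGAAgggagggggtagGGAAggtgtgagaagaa
The Cd3d window held 6 GGAA matches, the Cd3g window 2 and the Nkg7 window 4. TGTGGT was found once, upstream of Nkg7. Of all 32851 promoter windows of this length 93.4% held GGAA and 14.0% TGTGGT, so these matches are a description of the letters only.

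The barcodes differed from each other in depth and in how firmly they passed. Total UMIs ran from 3429 to 64684 (median 6667) in the DDC library and from 2667 to 16151 (median 5911) in the DDC and cMet library, against medians of 20624 and 3507 in the other barcodes. Gate-gene UMIs per barcode ran from 3 to 102 (median 30) and from 3 to 55 (median 16), or 5.17 to 98.3 and 5.27 to 114 per 10,000. In each library 1 barcode entered at exactly 3 UMIs. Just outside, 13 and 8 barcodes had at least 3 UMIs but rates of at most 4.35 and 4.73 per 10,000, and 3 and 5 were held out by the Kupffer genes. Of all gate-gene UMIs, 74.1% and 66.1% lay inside the members; 162 other barcodes (4.52%) and 128 (1.02%) had at least 1. Ptprc, the pan-leukocyte CD45, had a UMI in 26 of 29 and 25 of 26 members. The libraries shared 8 barcode sequences among those that passed the filter and 0 among the members.

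**Figure D1:**
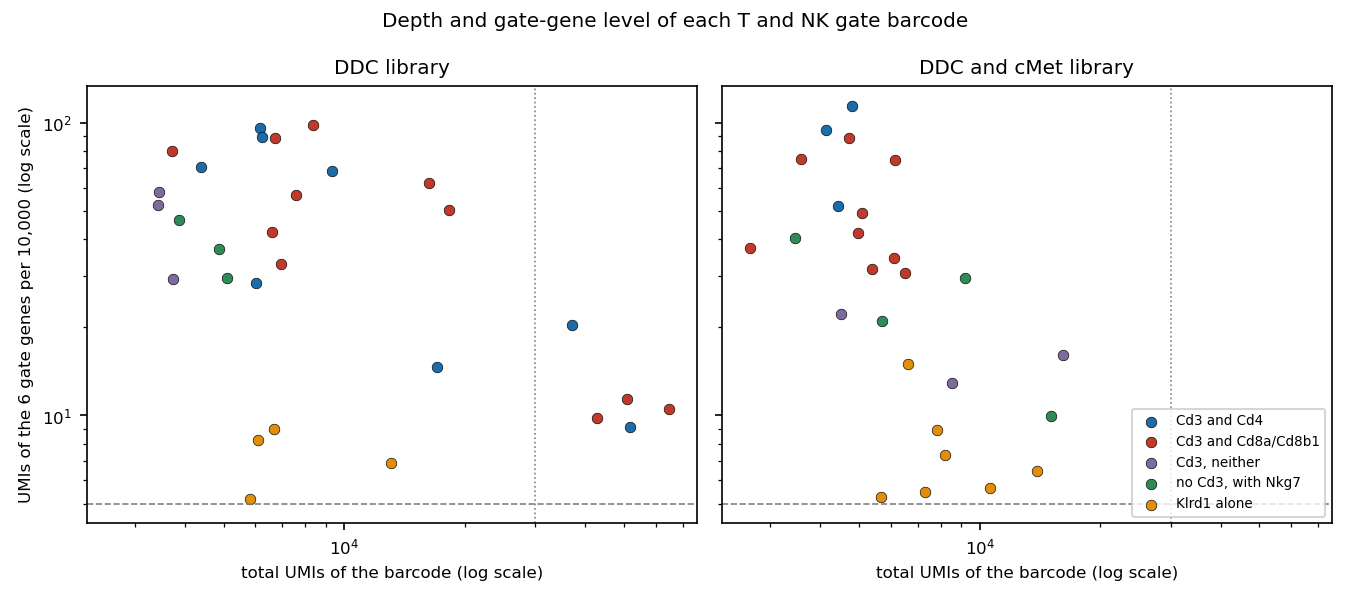
Each point is 1 member, with its total UMIs (log axis) against the UMIs of the 6 gate genes per 10,000 (log axis), coloured by subset; the dashed line is the gate's 5 per 10,000 and the dotted line 30000 UMIs. The 11 members that passed by Klrd1 alone lie between 5.17 and 15.05 per 10,000 and the others at 9.11 or above, and 5 members of the DDC library lie beyond 30000 UMIs.

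In the DDC library 5 barcodes stood apart, with 37148 to 64684 UMIs, and they held 247078 of the 426856 UMIs of its members (57.9%). All 5 had Cd3 transcripts (18 to 35 UMIs of Cd3d, Cd3e and Cd3g), and all 5 also carried hepatocyte transcripts: 580 to 3622 UMIs of 8 hepatocyte markers. Of these 5, 1 held 952 and another 1138 UMIs of cholangiocyte and progenitor markers, almost all Spp1; the latter also held 285 UMIs of stellate cell markers. Another held 58 UMIs of endothelial markers. Hepatocyte markers made up 0.897 to 8.46% of the UMIs in the 5, and at most 1.22% in the other 24 members. No doublet caller was used. These barcodes weigh heavily in sums over members, so ratios between the libraries are given below with and, where they moved most, without them.

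The label held for most members but not for all. Barcodes were split by Cd3 (at least 1 UMI of Cd3d, Cd3e or Cd3g), then by Cd4 and by Cd8a or Cd8b1. In the DDC library 22 of 29 had Cd3: 8 with Cd4, 11 with Cd8a or Cd8b1 and 3 with neither. In the DDC and cMet library 15 of 26 had Cd3: 3 with Cd4, 9 with Cd8a or Cd8b1 and 3 with neither. Barcodes with both coreceptors numbered 0 in each library. Without Cd3 there were 3 and 4 barcodes with Nkg7 and Klrd1, and 4 and 7 whose gate-gene UMIs were all Klrd1. The gate genes set these splits, so the counts describe the members and test nothing.

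**Figure D2:**
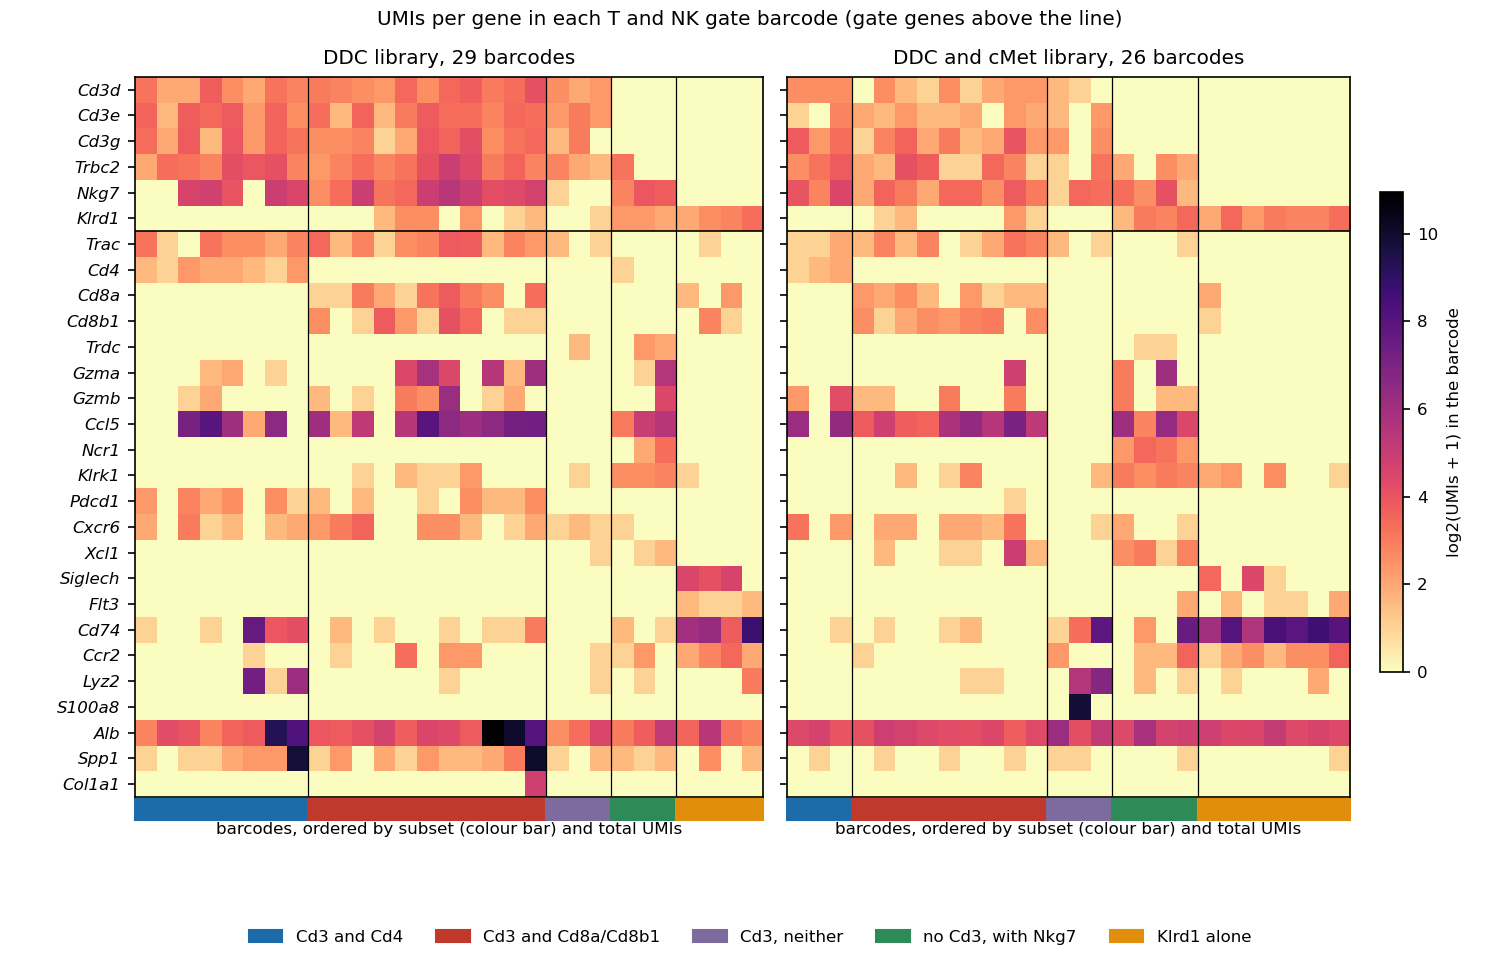
Each column is 1 member and each row a gene; colour gives log2(UMIs + 1), the line separates the 6 gate genes from the rest, and the bar below gives the subset. Cd74 fills all columns of members that passed by Klrd1 alone and Siglech 6 of these 11, Alb and Spp1 reach their highest counts in the deepest members of the DDC library, and S100a8 fills 1 column of the DDC and cMet library.

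The 11 members that passed by Klrd1 alone carried dendritic cell genes. Each had 3 to 10 Klrd1 UMIs, 0 of Cd3, Trbc2 and Nkg7, and at most 1 UMI over 8 T cell markers. Cd74, the invariant chain of class II molecules, had 13, 61, 77 and 435 UMIs in the 4 DDC barcodes and 47 to 394 (median 261) in the 7 others. Ccr2, a chemokine receptor of monocytes and their relatives, had a UMI in 4 of 4 and 7 of 7. Siglech, a lectin of plasmacytoid dendritic cells, reached 16, 22 and 23 UMIs in 3 DDC barcodes and 10 and 21 in 2 of the others; these 5 held 47 to 116 UMIs of 6 plasmacytoid markers. Cd8a or Cd8b1 had UMIs in 3 of the 4 and 1 of the 7, so Cd8 transcripts alone did not mark T cells here. The remaining 6 held 1 to 4 UMIs of the plasmacytoid list and 3 to 19 of the monocyte and dendritic list, with 242 to 435 Cd74 UMIs, against 13 to 77 in the 5. Cd74, Ccr2, Lyz2, S100a8 and S100a9 were chosen for description here and below after their values were seen.

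Klrd1 was also found in dendritic barcodes outside the gate. Among barcodes with at least 3 UMIs and 5 per 10,000 of Siglech, Ccr9 and Klk1, 26 in the DDC library and 51 in the other were no members. Of these, 17 (65.4%, 44.3 to 82.8%) and 20 (39.2%, 25.8 to 53.9%) had Klrd1. The share in barcodes with Kupffer markers, a cell type that should lack Klrd1, was 1.72% of 641 at a median of 16212 UMIs and 0.182% of 2743 at 6222, against medians of 8699 and 7504 in the plasmacytoid sets. Kupffer-marker barcodes had at least 3 UMIs and 5 per 10,000 of the Kupffer genes and under 5 per 10,000 of the gate genes. This rule in part held their Klrd1 share low. Outside the gate the share with Klrd1 was above that in Kupffer-marker barcodes, although the gate had taken out the barcodes highest in Klrd1. With the 4 and 2 members that also met these marker minimums, the sets held 30 and 53 barcodes. In those Cd3 was found in 1 and 0, and Nkg7 in 1 and 0.

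The 7 barcodes without Cd3 but with Nkg7 carried the genes of NK cells. Ncr1, which encodes the NK receptor NKp46, had 0, 3 and 9 UMIs in the DDC library and 4 to 10 in all 4 of the other; it was at 0 in the 37 barcodes with Cd3. Klrk1 (NKG2D) had 5 to 7 UMIs in all 7, and Klrd1 2 to 10. Ccl5, a chemokine of killer cells, had 7 to 43 UMIs in the 3 and 6 to 81 in the 4. Gzma, a granzyme, was uneven, with a highest value of 45 and of 68 UMIs. Trbc1, the beta-chain constant gene, had UMIs in 7 of 7 and Trbc2 in 1 of 3 and 3 of 4, without Cd3; the 2 genes are close copies and reads shared by them are uncertain. Trdc, the delta-chain constant gene, had UMIs in 2 of 3 and 2 of 4. Klra8 and Klrg1, further NK receptors, were at 0 in every member, which allows a UMI in up to 10.3% and 11.5% of members (3 counts of the total) and sets no limit on cells that express them.

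Members with Cd3 and Cd8a or Cd8b1 were the largest subset, with 11 and 9 barcodes. They held Cd8a in 10 and 8 and Cd8b1 in 9 and 8. Nkg7 was found in 11 of 11 (5 to 42 UMIs) and 9 of 9 (3 to 13), and Ccl5 in 10 of 11 (0 to 254) and 9 of 9 (11 to 129). Gzmb was in 7 and 4 and Gzma in 6 and 1. Nkg7 is a gate gene, but Ccl5 is not, and it was found in 19 of the 20. Which granzyme a barcode held varied. Of the 11 DDC barcodes, 3 are among the 5 deep barcodes with hepatocyte transcripts, and all 5 of those held Nkg7. Eomes, a transcription factor of memory and killer cells, was in 8 of 11 (17 UMIs) and 0 of 9. The 11 barcodes held 232866 UMIs in all and the 9 held 45206, and these counts were not thinned. Of the 5 deep barcodes, with either coreceptor, 4 held Eomes (10 UMIs).

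Members with Cd3 and Cd4 numbered 8 and 3, with 1 to 4 and 1 to 3 Cd4 UMIs. Ccl5 was found in 5 of 8 (up to 255 UMIs) and 2 of 3, and the gate gene Nkg7 in 5 of 8 and 3 of 3. Of the 8, 2 are among the 5 deep barcodes with hepatocyte transcripts, and both held Nkg7. Trac, the alpha-chain constant gene, had a UMI in 7 of 8 and 3 of 3. Of the 8 DDC barcodes, 1 held 194 Cd74 and 151 Lyz2 UMIs and another 70 of Lyz2, a myeloid lysozyme. Cd4 was also found in 6.71% of DDC Kupffer-marker barcodes. Foxp3, the factor of regulatory T cells, was at 0 in all 55 members, as were Il17a and Il17f, the cytokines of type 17 cells, and Il4. Il2ra, a receptor chain of activated and regulatory T cells, had 0 and 3 UMIs. At this depth a low level of these genes was not detectable.

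The 6 members with Cd3 and neither coreceptor were mixed. In the DDC library the 3 barcodes were shallow (3429 to 3747 UMIs). They held Il7r, the interleukin 7 receptor of resting T cells, in 3 of 3 (2 to 12 UMIs). Tcrg-C1, a gamma-chain constant gene, was in 2, and Trdc had 2 UMIs in 1. The same 3 held Trbc2 in 3, Trac in 2 and Trbc1 in 2. Tcrg-C1 was also in 3 of the 11 DDC members with Cd8a or Cd8b1, so it was not particular to these barcodes, while Trdc was at 0 there. In the DDC and cMet library 1 of the 3 held 938 UMIs of S100a8 and 947 of S100a9, the calprotectin genes of neutrophils, beside 10 of Nkg7 and a single Cd3d UMI. Another held 228 Cd74 and 107 Lyz2 UMIs. Both barcodes thus held myeloid transcripts; the part of such transcripts in the results was not tested.

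The share of members with a transcript rises with depth, so each member was also thinned to 1000 UMIs. Cd3 was then found in 58.6% of the DDC members (38.9 to 76.5%) and 13 of the 26 others (interval 29.9 to 70.1%), against 75.9% and 57.7% with all UMIs. In Kupffer-marker barcodes thinned the same way it was 1 of 641 (0.156%) and 0 of 2743, which allows up to 0.109% (3 counts of the total; exact upper limit 0.134%). Cd4 was found in 6.90% and 3.85%, and Cd8a or Cd8b1 in 20.7% and 23.1%. Nkg7 was found in 48.3% and 57.7%, and Klrd1 in 20.7% and 23.1%. Cd3, Nkg7 and Klrd1 chose the members, so these shares describe the gate, and cells of 1 library are not replicates of a condition.

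**Figure D3:**
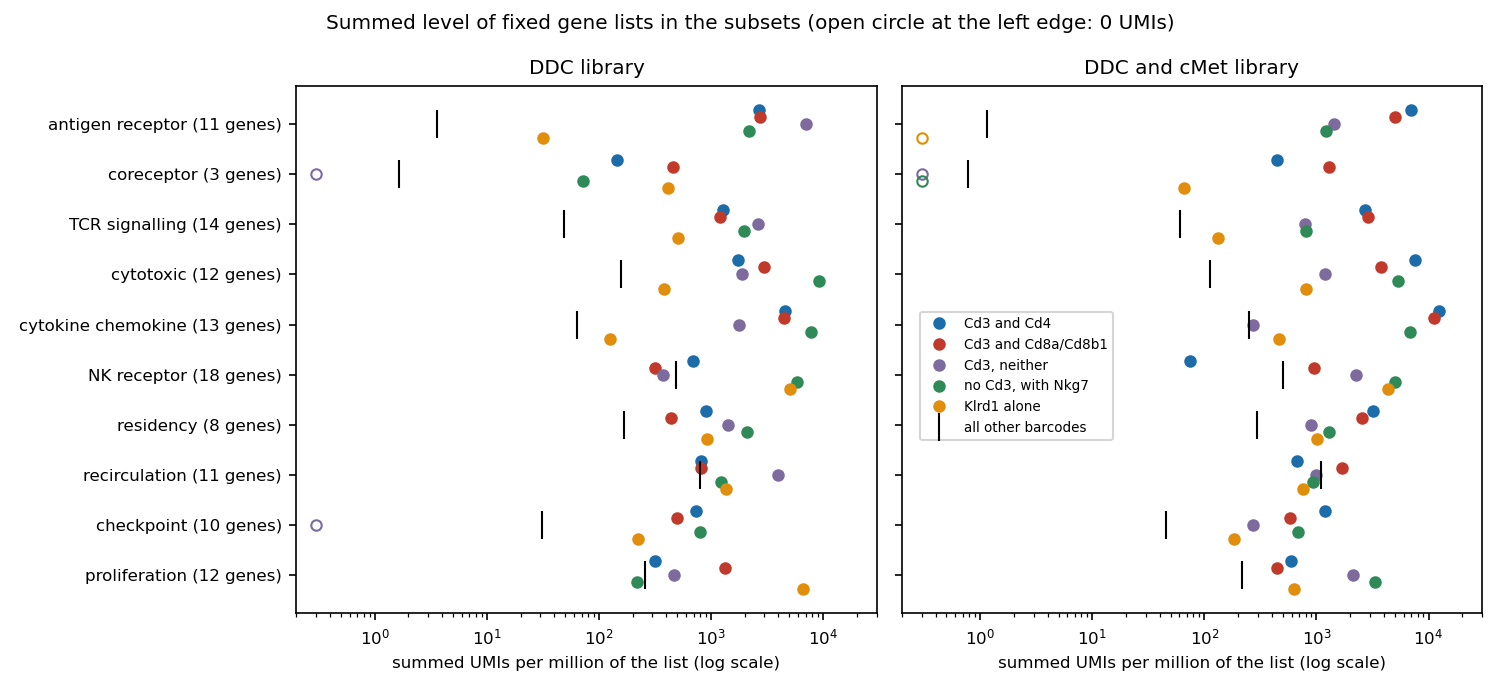
Summed CPM (UMIs per 1000000; log axis) of 10 gene lists in each subset of members and, as a vertical mark, in all other barcodes of the library. Open circles at the left edge stand for 0 UMIs. Members that passed by Klrd1 alone have the lowest antigen receptor sums (32 and 0), and their NK receptor sums (5059 and 4350) lie near those of the Nkg7 barcodes without Cd3 (5856 and 5001). In the former the UMIs of that list were mostly Tyrobp (107 and 134), Fcer1g (25 and 67) and the gate gene Klrd1 (23 and 45). Tyrobp and Fcer1g also serve myeloid receptors, and Ncr1 had 0 UMIs in these members.

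Against all other barcodes the members were higher in receptor chains, receptor signalling genes and killer genes. Of the genes compared, 232 of 1589 (14.6%) in the DDC library and 235 of 647 (36.3%) in the other were at least 2-fold higher, and 12.9% and 38.9% at least 2-fold lower. The 25 genes with the largest ratios in both libraries were 8.34 to 11.7 and 9.05 to 12.6 higher on the log2 scale of CPM. They were receptor chains (Trac, Trbc1, Trbc2, Cd3d, Cd3e, Cd3g), coreceptors (Cd8a, Cd8b1), surface molecules of T cell contact and adhesion (Cd2, Cd5, Cd6, Cd226), signalling molecules (Lck, Lat, Skap1, Sh2d1a, Sh2d2a), killer genes (Gzma, Gzmb, Nkg7), the chemokine receptor Cxcr6, the factor Bcl11b, and Gimap3, Gimap7 and Ms4a4b. The gate used 5 of these genes, and the others were measured in the barcodes it chose, so the ratios are a description.

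Levels are CPM, summed over members. Trac, which the gate did not use, stood at 251 CPM (205 to 303) and 237 (172 to 319), with 0.161 and 0.118 in other barcodes. Lck, the kinase that starts the receptor signal, stood at 150 (115 to 191) and 171 (116 to 243), with 0.289 and 0.165. Cxcr6 stood at 143 and 215, with 0.118 and 0.0353, and was found in 18 of 29 and 11 of 26 members. Ccl5 was the most abundant killer cell transcript, at 3742 CPM (3561 to 3930) and 4097 (3807 to 4402), found in 18 and 15 members, and 11.1 and 30.3 elsewhere. B2m, the class I light chain, stood at 2116 and 2228 against 2572 and 2277 in other barcodes.

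**Figure D4:**
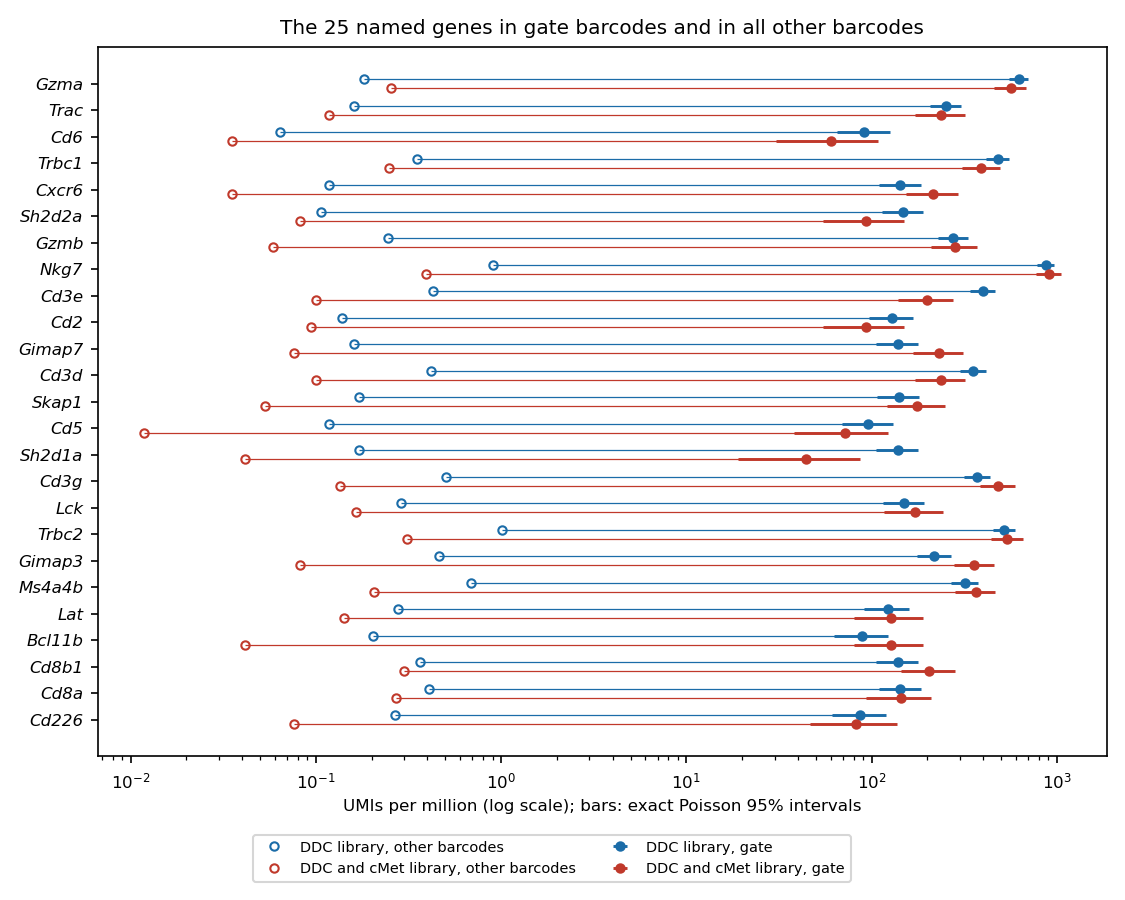
Filled points give CPM (log axis) of the 25 named genes summed over members, with exact Poisson 95% intervals, and open points the same in all other barcodes of the library. In both libraries the filled and open points are separated by more than 8 log2 units for every gene shown.

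Ratios between the libraries are log2, DDC and cMet over DDC, of CPM summed over members. Of 1917 genes compared, 129 (6.73%) were at least 2-fold higher and 383 (20%) at least 2-fold lower, with a median of −0.25 over all. Without the 5 deep barcodes the counts were 59 and 67 and the median over all was −0.20. Fewer genes then reached the minimum, so these counts are not shares of the 1917. Of 11 antigen receptor genes 6 reached the minimum of 50 UMIs; 0 were 2-fold higher and 1 lower, with a median of −0.18. Of the 6, Cd3d, Cd3e, Cd3g and Trbc2 are gate genes, as is Nkg7 of the cytotoxic list, so these counts rest partly on values that chose the members. Without the deep barcodes that median was −1.16, while among members with Cd3 it was 0.55. Of 14 receptor signalling genes 7 were compared, with 0 past 2-fold and a median of 0.06, or −0.95 without the deep barcodes. Of 12 cytotoxic genes 6 were compared, with 0 past 2-fold and a median of 0.04. Gzma was at −0.14 (−0.61 to 0.32), Gzmb at 0.02 (−0.66 to 0.69) and Nkg7 at 0.05 (−0.32 to 0.42). Gzma had 265 UMIs in 11 DDC members (37.9%) and 102 UMIs in 3 DDC and cMet members (11.5%). Its highest count in a member was 68 UMIs in each library. The Gzma ratio thus compares sums that rest on few members, and a smaller share of the DDC and cMet members held the gene. Without the deep barcodes the cytotoxic median was −0.41 and Gzma, Gzmb and Nkg7 were at −0.58, −1.17 and −0.67.

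The 4 NK receptor genes compared were higher in the DDC and cMet library, where 11 of 26 members had no Cd3, against 7 of 29. Of those without Cd3, 7 and 4 had passed by Klrd1 alone, and 4 and 3 held Nkg7. Of 18 genes on the list these 4, Klrd1, Klrk1, Tyrobp and Fcer1g, reached 50 UMIs, and all 4 were at least 2-fold higher, beside 6.73% of all genes. Their median was 1.76, or 0.72 without the deep barcodes, where none of the 4 was at least 2-fold higher. Klrd1 is a gate gene and chose members. Klrk1 had 27 UMIs in 10 members and 49 in 12, a log2 ratio of 2.09 (1.12 to 3.10). Among members with Cd3 and at most 30000 UMIs its ratio was 1.68-fold (0.649 to 4.42). Tyrobp and Fcer1g, adaptors of NK and myeloid receptors, were at 1.51 and 1.75; they had UMIs in all 11 members that passed by Klrd1 alone. As means over barcodes, which weigh each member equally, Klrk1 was at 0.86 and Tyrobp at 0.55.

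Among the checkpoint genes Pdcd1 differed between the libraries. Pdcd1, which encodes the inhibitory receptor PD-1, had 43 UMIs in 13 of the 29 DDC members and 1 UMI in 1 of 26. All 13 had Cd3: 6 with Cd4 held 1, 3, 4, 5, 5 and 6 UMIs, and 7 with Cd8a or Cd8b1 held 1, 2, 2, 2, 2, 5 and 5. The level was 101 (72.9 to 136) against 5.51 (0.14 to 30.7) CPM, an 18.3-fold ratio (3.11 to 738). Limited to members with Cd3 and at most 30000 UMIs, Pdcd1 was found in 8 of 17 (28 UMIs) and 1 of 15 (1 UMI). With each barcode with Cd3 thinned to 2000 UMIs it was found in 7 of 22 (31.8%, 13.9 to 54.9%) and 0 of 15 (0 to 21.8%), so the intervals of the shares overlap. Kupffer-marker barcodes had Pdcd1 in 0 of 641 and 0 of 2743.

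Tox, Lag3 and Gzmk were also higher in the DDC members. Tox, a factor of persistently stimulated T cells, had 49 UMIs in 13 members and 6 in 5, or 3.47-fold (1.49 to 9.91). Lag3, an inhibitory receptor, had 33 UMIs in 12 and 3 in 3, or 4.67-fold (1.47 to 23.8), and Havcr2 (TIM-3) 19 in 10 and 4 in 4, or 2.02-fold (0.671 to 8.16). Gzmk, a granzyme of memory T cells, had 36 UMIs in 14 and 4 in 2, or 3.82-fold (1.37 to 14.8). The interval of Havcr2 includes 1. Among members with Cd3 alone, Pdcd1 was 9.89-fold (1.68 to 400) and Tox 3.76-fold (1.21 to 18.8) higher, while the intervals of Lag3 (3.45-fold, 0.876 to 29.8) and Gzmk (2.01-fold, 0.720 to 7.80) included 1. Without the deep barcodes those of members with Cd3 did not include 1: Tox was 8.06-fold (2.55 to 40.8), Lag3 5.23-fold (1.23 to 46.9) and Gzmk 4.57-fold (1.60 to 17.9) higher. With the deep barcodes kept and the members that passed by Klrd1 alone left out, both intervals also included 1. Lag3 was then 3.07-fold (0.953 to 15.7) and Gzmk 2.76-fold (0.989 to 10.7). The calls for Lag3 and Gzmk thus depend on which members are taken, the 5 deep barcodes among them. Not all inhibitory genes shared this: Tigit had 3 and 5 UMIs, Ctla4 8 and 9, Cd160 21 and 20 and Entpd1 16 and 15, from members' totals of 426856 and 181367 UMIs. Of the 10 checkpoint genes 2 reached 50 UMIs, 1 of them at least 2-fold lower, beside 20% of all genes. Pdcd1, Lag3, Havcr2 and Gzmk were under that minimum, and they were singled out after their values were seen.

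**Figure D5:**
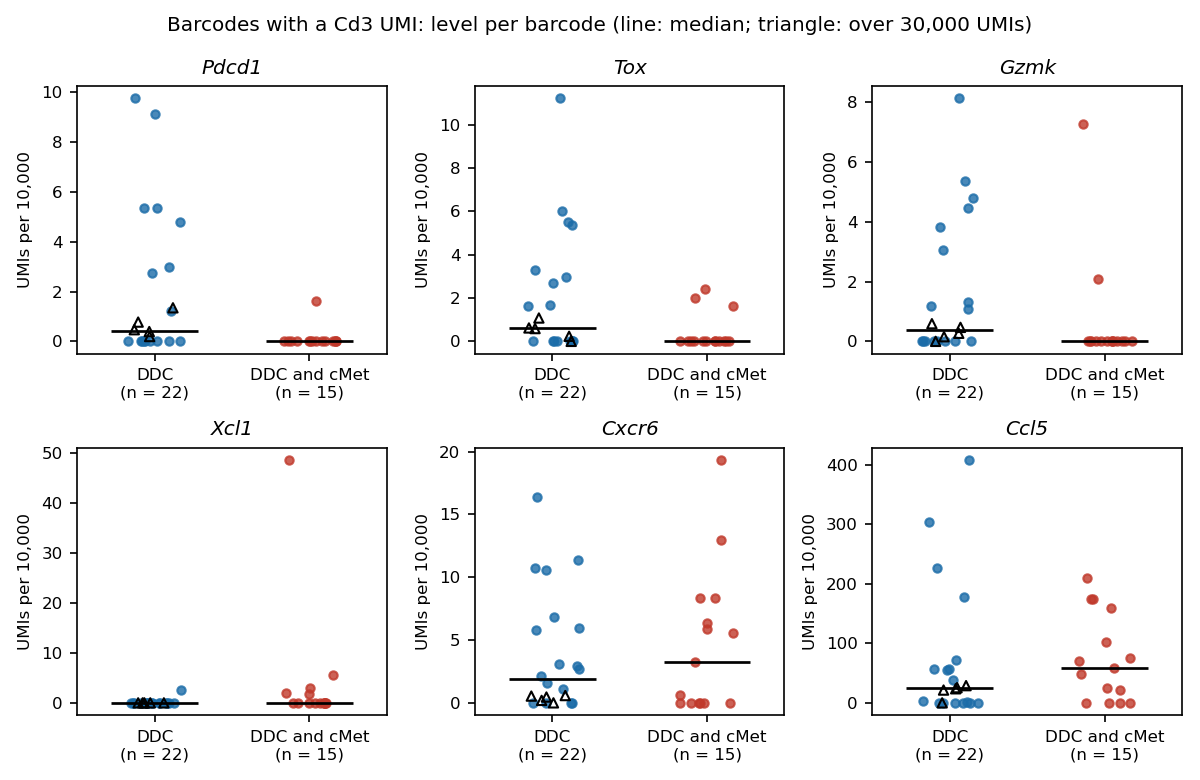
Each point is a barcode with Cd3, at its UMIs per 10,000 of the gene named; lines are medians and open triangles barcodes over 30000 UMIs. Pdcd1 lies above 0 in 13 of 22 DDC barcodes and 1 of 15 of the other library, Xcl1 in 1 and 5, and for Cxcr6 and Ccl5 the ranges of the libraries overlap.

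A second set of genes was higher in the DDC and cMet library. Xcl1, a chemokine that draws dendritic cells, had 4 UMIs in 3 members and 55 in 9, a log2 ratio of 5.02 (3.25 to 7.27), 3.58 as a mean over barcodes and 3.77 without the deep barcodes. It had 19 UMIs over 4 of 4 Nkg7 barcodes without Cd3 and 36 over 5 of 9 with Cd8a or Cd8b1, of which 30 lay in 1 barcode. Other barcodes had 17 and 9 Xcl1 UMIs in all. Sytl3, a granule transport gene, had 10 UMIs in 6 members and 42 in 12, at 3.31 (1.95 to 4.80) and 3.06 without the deep barcodes, while in other barcodes it was at −1.39.

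Cd69, a marker of recent activation and residency, had 33 UMIs in 12 members and 76 in 18, at 2.44 (1.60 to 3.30), 1.10 as a mean over barcodes, 1.38 without the deep barcodes and 1.54 in other barcodes. Among members with Cd3 it was 9.03-fold higher (5.56 to 15.02), and 3.76-fold (2.25 to 6.48) without the deep barcodes. Klf2, a factor of recirculating T cells, had 38 UMIs in 11 and 70 in 15, at 2.12, 1.12 without the deep barcodes and 1.11 in other barcodes. Both genes thus moved in the same direction in barcodes outside the gate, and the part of that shift in the members was not tested. The intervals of Cxcr6 and Ccl5 included 0, at 0.59 (−0.26 to 1.43) and 0.13 (−0.05 to 0.31), or −0.43 and −0.59 without the deep barcodes. Among 13 early response genes 9 were compared and 1 was at least 2-fold higher, beside 6.73% of all genes, with a median of 0.62.

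Most of the 24 genes at either end of the comparison belong to no T or NK list. Gm10260, Gm10076, Hist1h2ap and Gm42418 were 2.78 to 6.09 higher in the DDC and cMet members and 2.95 to 10.2 higher in its other barcodes, so the barcodes outside the gate shifted the same way; the first value of Gm10260 is a bound, since the DDC members had 0 UMIs. Cd74, Napsa and Clec10a were at 2.54, 3.04 and 2.61, or 1.36, 1.86 and 1.75 without the deep barcodes; of their UMIs in that library's members 1608 of 2043, 65 of 77 and 40 of 44 lay in the 7 members that passed by Klrd1 alone. Il1b and Neurl3 were at 4.23 and 2.68, or 2.99 and 2.07 without the deep barcodes. Il1b had 48 UMIs in the DDC and cMet members. Without those 7 members it had 10, of which 3 lay in members with Cd3. At the other end were Ccl2, Rad51b, Socs2, Col4a1, Rgs5, Hspb1, Lcn2, Mfge8, Tpm1, Cisd2, Itgav and Sox4, from −4.10 to −2.18. Without the deep barcodes Ccl2, Mfge8 and Sox4 turned to 0.72, 0.31 and 2.57, and Lcn2, Itgav, Rad51b and Rgs5 moved to −0.01, −0.24, −1.01 and −1.43. Tpm1 and Cisd2 moved to −1.60 and −1.82, and Col4a1 and Hspb1 had too few UMIs for a ratio. Socs2, a cytokine signalling inhibitor, was then at −3.41.

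Transcripts of proliferation genes were found in part of the members, and no criterion for dividing was set. Mki67, a proliferation marker, had 43 UMIs in 9 members and 15 in 4, and Top2a 42 in 7 and 8 in 3. The highest counts were in 1 member that passed by Klrd1 alone (16 and 21) and in 1 with Cd8a or Cd8b1 (13 and 14). Of the 5 deep barcodes, 4 held Mki67 (6 UMIs). By subset, the list's summed CPM was highest in DDC members that passed by Klrd1 alone (6671). In the other library it was highest in Nkg7 barcodes without Cd3 (3324). Of 12 proliferation genes 5 were compared, 0 of them at least 2-fold higher and 1 lower, a share equal to the 20% of all genes. The median was −0.28, or −1.32 without the deep barcodes.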

How the data were processed

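The authors deposited unnormalized UMI counts for every gene in every barcode. Per the file headers the matrices carry the Cell Ranger version 5.0.1; the submitters' processing notes instead list version 6.0.1, along with Seurat 4.0.1 and mm10, and the 2 were not reconciled. How barcodes were picked before deposit is not stated in the labels. The files held 104523363 UMIs in 8694 barcodes (DDC) and 186997180 in 18316.

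The cell filter asked for 500 genes and 1000 UMIs or more and for a mitochondrial share of 30% or less. No doublet was removed. UMIs were summed over members and scaled to CPM, leaving out the reporter features EGFP and tdTomato. Ratios between libraries took genes with at least 50 UMIs over both sums. The 25 genes named against other barcodes followed the same minimum. Counts of genes against other barcodes took those with at least 50 UMIs in the members' sum, or expected there. A side at 0 was set at 3 UMIs per sum, so its ratio is a bound. Sums carry exact Poisson and shares Clopper-Pearson intervals. Intervals of log2 ratios combine the bounds of both sums' Poisson intervals, which makes them wide. Intervals of ratios given as fold are conditional exact. PCR and barcodes of 1 mouse are not independent, so all cover counting error only. There is no p-value with 1 library per group. Members, 19 gene lists and 15 marker lists were chosen with earlier results of these data known. Named genes were the 25 highest against other barcodes by the smaller of both libraries' ratios, the 12 highest and 12 lowest between libraries, and up to 4 list members with the highest CPM, without mitochondrial and ribosomal protein genes, and between libraries also without haemoglobin genes and genes over 3 times higher in other barcodes; others are said to be chosen after their values were seen or were under the UMI minimum. Of the genes this rule names between libraries, 1 is not reported here. No subset reached the 20 barcodes needed for genes of its own (largest 11). Log2 ratios and their intervals were tested on simulated counts with 200 changed genes. Sums and intervals came from scipy 1.17.1 and numpy 2.4.6 under Python 3.11.15, tables from pandas 2.3.3 and figures from matplotlib 3.10.9, with GENCODE vM21 positions and RefSeq promoters, in which Klrd1 and Trbc2 were not matched.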

Additional observations from a re-analysis of the deposited data

Results flagged for a closer look

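EGFP, the Sox9 reporter, is a feature outside the gene comparisons. It had 63 UMIs in 4 of the 29 DDC members (13.8%, 3.89 to 31.7%), all 4 among the 5 barcodes over 30000 UMIs, and 0 in the other 24. In the same library it was found in 8.89% of Kupffer-marker barcodes and 28.3% of all other barcodes. tdTomato, the second reporter, was in 0 of 26 members and 2 of 12567 other barcodes of the DDC and cMet library. It was also in 0 of 2743 Kupffer-marker barcodes. With so few UMIs in the whole library, its absence from the members cannot be read.

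For 7 of the genes named between the libraries the log2 ratio of members over other barcodes had opposite signs in the libraries, DDC first; the difference was not tested. Il1b was at −0.48 and 2.07, Ccl2 at 0.42 and −1.54, and Socs2 at 1.06 and −1.44. Of the 48 Il1b UMIs in the DDC and cMet members, 10 lay outside the members that passed by Klrd1 alone. Col4a1 was at 1.80 and −0.73 and Rgs5 at 0.89 and −1.24, where the second value of each rests on 0 UMIs in members. Cisd2 was at 0.20 and −1.37 and Sox4 at 0.27 and −0.45.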

How the results depend on the processing

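No paired analysis was possible because each group is 1 library. Without barcodes that hold markers of other classes, the member share was 0.415% in the DDC library and 0.0794% in the other, the Cd3 share of the latter 80.0%, and the genes at least 2-fold above other barcodes 126 and 102. A stricter cell filter gave a member share of 0.397% in the DDC and cMet library. Unthinned shares in DDC members were 31.0% (Cd4), 48.3% (Cd8a or Cd8b1), 69.0% (Nkg7) and 48.3% (Klrd1); in the others Klrd1 was 57.7%, or 46.2% at 2000 UMIs. Nkg7 rose to 78.9% there with a stricter gate, with 2 gate genes required and without members that passed by Klrd1 alone. Genes above other barcodes numbered 684 and 595 at 20 UMIs, 113 and 139 at 100 UMIs, and 61 and 86 when thinned. Between libraries, counts of higher and lower genes were 79 and 207 (stricter gate), 45 and 139 (without markers of other classes), 59 and 67 (without barcodes over 30000 UMIs), 24 and 23 (without Cd3), 391 and 1013 (20 UMIs), 60 and 155 (100 UMIs), 74 and 245 (mean over barcodes) and 18 and 9 (thinned); fewer genes reached the minimum where UMIs were fewer. Without the barcodes over 30000 UMIs the type 17 list turned from −1.13 to 0.64, Ccl2 to 0.72, Mfge8 to 0.31 and Sox4 to 2.57. Sox4 was also at 0.47 without markers of other classes and 1.54 without Cd3, and Hist1h2ap turned from 4.85 to −0.92 without markers of other classes; the cause was not tested. Of the values for named genes 322 stayed within their counting interval, 77 moved beyond it and 6 changed sign. Leaving out barcodes over 30000 UMIs and those that passed by Klrd1 alone were chosen after seeing the data. Depth limits each subset: a gene with 0 UMIs could still have a UMI in up to 10.3% of DDC members and 11.5% of the others (3 counts of the total; exact upper limits 11.9% and 13.2%).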
